A study of Rattus norvegicus with 8 samples.

Results

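The endocannabinoid receptor and enzyme genes were measured by RNA-seq in the medial prefrontal cortex of rats with high motor impulsivity (HI) and rats with low motor impulsivity (LI). The 7 genes, taken by symbol from tables of 17168 genes, were the receptor genes Cnr1 and Cnr2, the diacylglycerol lipase genes Dagla and Daglb, the monoacylglycerol lipase gene Mgll, the N-acyl phosphatidylethanolamine phospholipase D gene Napepld and the fatty acid amide hydrolase gene Faah. All 7 were in every table and all 7 had enough counts to be tested. HI rats were those in the upper quartile of premature responding, that is poking before the cue light in the one-choice serial reaction time task, and LI rats those in the lower quartile. Both groups were male Sprague-Dawley rats with no drug or genotype named in the labels, no age is given in the sources used here, and each group had 4 libraries, called HI1 to HI4 and LI1 to LI4. Whether each library came from its own animal is not spelled out in the labels, so the p-values measure the spread between these libraries.

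Endocannabinoids are lipid messengers that cells make on demand. In cortex, diacylglycerol lipase in the postsynaptic neuron makes 2-arachidonoylglycerol (2-AG), which crosses back to the presynaptic terminal, activates the CB1 receptor there and lowers transmitter release, until monoacylglycerol lipase breaks it down. Anandamide, the other main endocannabinoid, is made by NAPE-PLD among other routes and broken down by FAAH. CB1 is abundant on the terminals of cholecystokinin interneurons and is also present on glutamate terminals, whereas CB2 is best known from immune cells.

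Total counts ranged from 7354416 to 9476656 per library. Ribosomal RNA took between 0.406% and 25.5% of the counts, with the highest share in HI2 and the lowest shares in HI4 and LI3. Markers of excitatory neurons were abundant, with a summed level of 2763 to 3381 counts scaled to a library of a fixed size (CPM) in HI and 2613 to 3052 CPM in LI over 4 genes. LI2 stood apart in markers of striatum, the tissue below the frontal cortex, with a summed 692 CPM over 6 genes against 266 to 315 CPM in the other 7 libraries, and in markers of oligodendrocytes, with 5902 CPM over 5 genes against 1503 to 3136 CPM in the other 7. HI1 stood apart in markers of meninges, with a summed 415 CPM over 4 genes against 13.5 to 116 CPM in the other 7, and the 3 of these genes that were tested had higher means in HI (median of their log2 fold changes 1.86). Without HI1 the log2 fold change (HI minus LI) was 0.24 for Cnr1, -0.23 for Cnr2 and 0.18 for Napepld. In a homogenate, fewer cells of a type and less RNA per cell cannot be told apart.

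Across the libraries Mgll was the most abundant of the 7 transcripts per unit of length and Cnr2 the least. Levels per length are given as the deposited TPM, which divide counts by transcript length and scale each library to the same total. Mgll averaged 202 ± 20.4 TPM in HI and 201 ± 21.5 TPM in LI (SD, n = 4 each). Cnr1 averaged 140 ± 29.6 TPM in HI and 122 ± 25.2 TPM in LI. Mgll lay above Cnr1 in 7 of the 8 libraries, and the exception was HI4, where Cnr1 stood at 180 TPM and Mgll at 175 TPM. Dagla averaged 68.1 ± 14.2 TPM in HI and 68.1 ± 6.30 TPM in LI, and Faah 60.6 ± 3.96 TPM in HI and 60.1 ± 9.32 TPM in LI. The order of these 2 neighbours did not hold throughout, since Dagla was above Faah in 6 of the 8 libraries and below it in HI4 and LI1. Their difference was not tested. Daglb averaged 24.9 ± 4.54 TPM in HI and 25.2 ± 4.40 TPM in LI, Napepld 14.0 ± 1.49 TPM in HI and 11.9 ± 0.565 TPM in LI, and Cnr2 6.66 ± 1.15 TPM in HI and 8.14 ± 0.758 TPM in LI. The order Faah, Daglb, Napepld, Cnr2 held in all 8 libraries, and Mgll exceeded Cnr2 by between 21.2-fold and 37.5-fold.

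**Figure D1:**
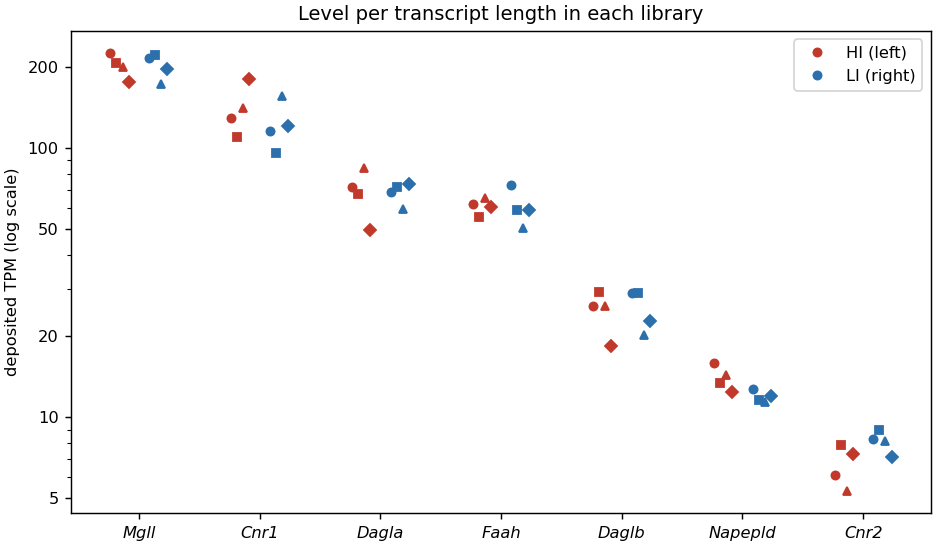
Deposited TPM (log axis) of the 7 genes in each library, ordered by mean level, with HI libraries in red on the left and LI libraries in blue on the right of each gene and marker shapes for replicate numbers 1 to 4. HI and LI points overlap within each gene, and the genes span from 5.32 TPM (Cnr2 in HI3) to 225 TPM (Mgll in HI1). For Napepld HI1 to HI3 lie above every LI library, and for Cnr2 HI1 and HI3 lie below every LI library.

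The transcript models behind these levels differ in length. Cnr1 and Dagla were counted over 5465 and 5567 bases, Faah over 3526, Cnr2 over 3 transcripts with a median length of 3286, Daglb over 2962, Mgll over 1208 and Napepld over 1191 bases. Reads from parts of a messenger RNA that a short model leaves out are not in its count, so the place of Mgll and Napepld in this order depends on the annotation the authors used. The expected counts of Cnr1, Cnr2 and Daglb were not whole, as happens when reads that match several places are divided among them, and those 3 levels are uncertain to that extent.

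The upstream sequences of the genes at the top and bottom of the order are shown because they differ in base composition. RefSeq (build GRCr8) gave windows from 250 bases before to 50 bases after a start for 4 of the 7 genes, Mgll, Napepld, Daglb and Cnr2, the last with 3 starts. In the following lines capitals mark each CG dinucleotide. The Mgll window is chr4:122749186-122749485 on the plus strand, and the window of the first Cnr2 start is chr5:153408934-153409233 on the plus strand.
Mgll: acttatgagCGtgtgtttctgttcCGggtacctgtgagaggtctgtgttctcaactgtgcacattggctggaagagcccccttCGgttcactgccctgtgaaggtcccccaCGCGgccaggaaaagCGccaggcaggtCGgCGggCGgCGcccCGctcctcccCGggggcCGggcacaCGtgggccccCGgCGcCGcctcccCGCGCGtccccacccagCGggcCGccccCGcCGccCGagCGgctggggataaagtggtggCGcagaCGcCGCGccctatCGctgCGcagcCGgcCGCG
Cnr2: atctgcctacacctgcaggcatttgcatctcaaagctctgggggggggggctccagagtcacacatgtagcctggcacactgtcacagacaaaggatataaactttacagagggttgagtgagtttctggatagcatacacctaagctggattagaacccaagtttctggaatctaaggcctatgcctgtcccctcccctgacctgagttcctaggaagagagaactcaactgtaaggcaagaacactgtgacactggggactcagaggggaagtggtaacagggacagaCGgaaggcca
The Mgll window was 72.3% G and C and held 35 CG dinucleotides, and the Napepld window was 74.7% G and C with 32. The Daglb window was 59.0% G and C with 21 CG dinucleotides. The 3 Cnr2 windows were 51.3%, 53.0% and 46.7% G and C and held 1, 10 and 8 CG dinucleotides. Over 33365 distinct rat windows of the same length the median was 51.7% G and C and 7 CG dinucleotides. The letters GGGCGG occurred on either strand 3 times in the Mgll window and 8 times in that of Napepld, and in none of the Daglb or Cnr2 windows, against 33.1% of all windows with at least 1. The letters TATAAA occurred on either strand in the Daglb window and in the windows of Cnr2 starts 1 and 3, against 14.2% of all windows.

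Between HI and LI, none of the 7 genes differed beyond the spread of the libraries. The genes that make and break down 2-AG were almost level between the groups, while Cnr1 and Napepld had higher means in HI and Cnr2 a lower mean. By edgeR's quasi-likelihood test with Benjamini-Hochberg adjustment over 11631 genes, 0 of the 7 passed an adjusted p of 0.1, with each adjusted p at 1.00, where 0% of all genes passed. The same test gave 484 of the 11631 genes an unadjusted p under 0.05. DESeq2, run on all 17168 genes without a filter for low counts, gave 587. It passed 30 of the 7509 genes with an adjusted p, or 0.4%, none of them among the 7. None of the 7 had an unadjusted p under 0.05 in the edgeR test, against 4.16% of all genes (3.07% higher and 1.09% lower in HI). HI and LI overlapped in all 7, where 3.46% of all genes had groups that did not overlap. Means were higher in HI for 5 of the 7, beside 48.5% of all genes. Among these 5, Dagla, Mgll and Faah had log2 fold changes of only 0.0091, 0.011 and 0.013, far smaller than their standard errors. The median log2 fold change (HI minus LI) of the 7 genes was 0.011 and the median of its absolute size 0.013, beside medians of -0.0069 and 0.12 over all genes tested. Fisher's exact test on counts summed over each group, the test named in the series' design, passed 6 of the 7 genes and 56.7% of all genes at an adjusted p of 0.1, and it takes no account of the spread between libraries. The standard errors (SE) of the 7 genes ran from 0.12 to 0.18, against a median of 0.19 over all genes.

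**Figure D2:**
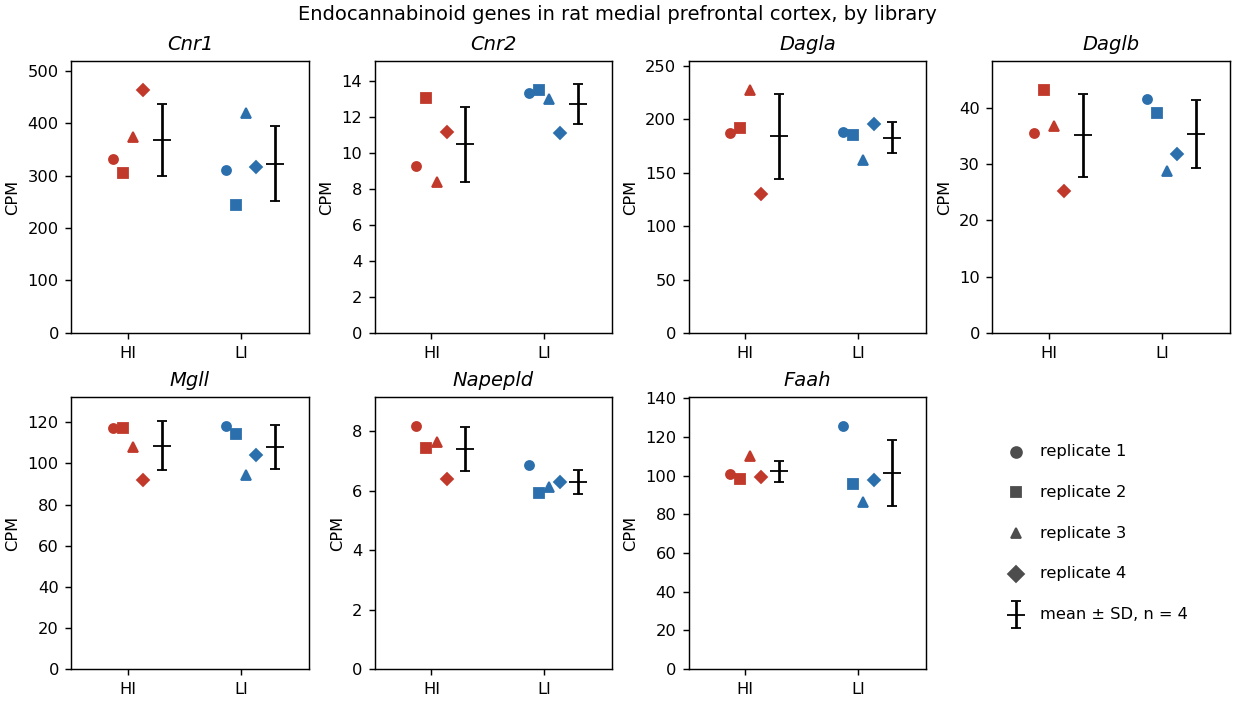
CPM of the 7 genes in each library, with HI in red on the left and LI in blue on the right, marker shapes for replicate numbers, and black bars for the mean ± SD of 4 libraries. The groups overlap in every panel, and HI4 is the highest library for Cnr1 and the lowest for Dagla, Daglb and Mgll.

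Among the receptors, Cnr1 stood at 331, 305, 373 and 463 CPM in HI1 to HI4 and at 311, 245, 419 and 316 CPM in LI1 to LI4. HI4 and LI3 were the highest libraries and LI2 the lowest, so each group had 1 high library and the groups overlapped. The log2 fold change was 0.19 ± 0.18 (SE), with a 95% interval from -0.22 to 0.60, which is 0.860-fold to 1.51-fold. It was 0.059 without HI4, 0.34 without LI3 and 0.078 without LI2, the library high in striatal and oligodendrocyte markers, whose part in the result was not tested. HI4 and LI3 were also the libraries with the least ribosomal RNA, and without both of them the difference was 0.21 ± 0.13. When the share of ribosomal RNA entered the edgeR quasi-likelihood fit, as planned, the difference was 0.32 ± 0.16. The unadjusted p of Cnr1 in that edgeR fit was 0.0825 and the adjusted p 0.701. When the log2 of the share entered the fit instead, a choice made with the data seen, the difference was 0.30 ± 0.092. Its unadjusted p was 0.00736 and its adjusted p 0.124, short of the threshold that 3.78% of all genes passed in that fit. Low unadjusted p-values were common there, with 2309 of 11631 genes under 0.05. Without HI4 the fit with the log2 share gave a Cnr1 difference of 0.35 ± 0.12, with an unadjusted p of 0.0172 and an adjusted p of 0.518. Without LI3 it gave 0.34 ± 0.098, with an unadjusted p of 0.00627 and an adjusted p of 0.191. Genes with an unadjusted p under 0.05 then numbered 1082 of 11800 without HI4 and 1881 of 11785 without LI3. With libraries scaled by their totals alone, which moved the median of all genes to -0.12, the difference in Cnr1 was 0.090. Markers of the interneurons rich in CB1 summed to 532 to 659 CPM in HI and 559 to 789 CPM in LI over 5 genes, all of them detected, of which 4 had lower means in HI, and their part in the level of Cnr1 was not tested. Most of that sum was Cck, at 422 to 530 CPM in HI and 414 to 593 CPM in LI. Lower means in HI were not particular to this list, whose median log2 fold change was -0.12. Markers of interneurons in general were lower in 5 of 5 genes, with a median of -0.31.

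Cnr2 stood at 9.31, 13.1, 8.39 and 11.2 CPM in HI1 to HI4 and at 13.3, 13.5, 13.0 and 11.1 CPM in LI1 to LI4, from expected counts of 78.6 to 90.2 in HI and 102 to 128 in LI. HI1 and HI3 were low, while HI2 and HI4 lay within the LI range. The log2 fold change was -0.29 ± 0.18, with an interval from -0.68 to 0.10. Scaled by library totals alone it was -0.41, with an unadjusted p of 0.0369 and an adjusted p of 0.892 in edgeR's test. Markers of microglia, a brain cell of the immune lineage, were lower on average in HI in 6 of 6 genes, with log2 fold changes from -0.32 to -0.11 and a summed level of 203 to 241 CPM in HI and 255 to 269 CPM in LI. None of the 6 was at 0, and their part in the Cnr2 difference was not tested. Over all genes tested, 5993 of 11631 had lower means in HI. Lower means throughout a list were not particular to microglia. The tested markers of oligodendrocytes (5 of 5), interneurons in general (5 of 5) and striatum (6 of 6) were also all lower. Those of meninges (3 of 3) were all higher, and those of excitatory neurons, astrocytes and endothelium went both ways. Markers of B cells, in which CB2 is abundant, were near the limit of detection, with at most 2 counts in any library for the 3 genes in the tables.

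Of the enzymes that make 2-AG, Dagla encodes the lipase that supplies most of it in adult brain and Daglb its close relative. Dagla stood at 187, 192, 227 and 130 CPM in HI1 to HI4 and at 188, 186, 162 and 196 CPM in LI1 to LI4. HI3 was the highest and HI4 the lowest of all libraries, with LI between them, so the SD was 40.1 CPM in HI and 14.6 CPM in LI around means of 184 CPM in HI and 183 CPM in LI. The log2 fold change was 0.0091 ± 0.16, with an interval from -0.35 to 0.37, and it was 0.14 without HI4 and -0.11 without HI3. Daglb stood at 35.5, 43.1, 36.7 and 25.3 CPM in HI1 to HI4 and at 41.6, 39.1, 28.8 and 31.7 CPM in LI1 to LI4. Again HI4 was the lowest, with LI3 next, and the log2 fold change was -0.0087 ± 0.18, with an interval from -0.42 to 0.40. It was 0.12 without HI4 and -0.12 without HI2.

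Mgll, whose product breaks down most brain 2-AG, varied least of the 7 genes. It stood at 117, 117, 108 and 92.0 CPM in HI1 to HI4 and at 118, 114, 94.4 and 104 CPM in LI1 to LI4. HI4 and LI3 were again the lowest of their groups. The log2 fold change was 0.011 ± 0.12, with an interval from -0.26 to 0.28, so these libraries leave room for a level in HI between 0.837-fold and 1.21-fold that in LI. The SD of its log2 CPM over the 8 libraries was 0.14, and 13.8% of all genes had a smaller one.

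Of the anandamide enzymes, Napepld stood at 8.17, 7.44, 7.65 and 6.39 CPM in HI1 to HI4 and at 6.87, 5.93, 6.13 and 6.28 CPM in LI1 to LI4. HI1 to HI3 lay above every LI library and HI4 lay among them. The log2 fold change was 0.23 ± 0.17, with an interval from -0.14 to 0.61 (0.13 with library totals alone), and the value rests on expected counts of 45 to 79 per library. Faah stood at 101, 98.2, 110 and 99.3 CPM in HI1 to HI4 and at 125, 95.4, 86.1 and 97.8 CPM in LI1 to LI4. LI1 was the highest and LI3 the lowest of all libraries, with HI between them, and the SD was 5.34 CPM in HI and 16.9 CPM in LI. The log2 fold change was 0.013 ± 0.13, with an interval from -0.27 to 0.30, and it was 0.13 without LI1.

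**Figure D3:**
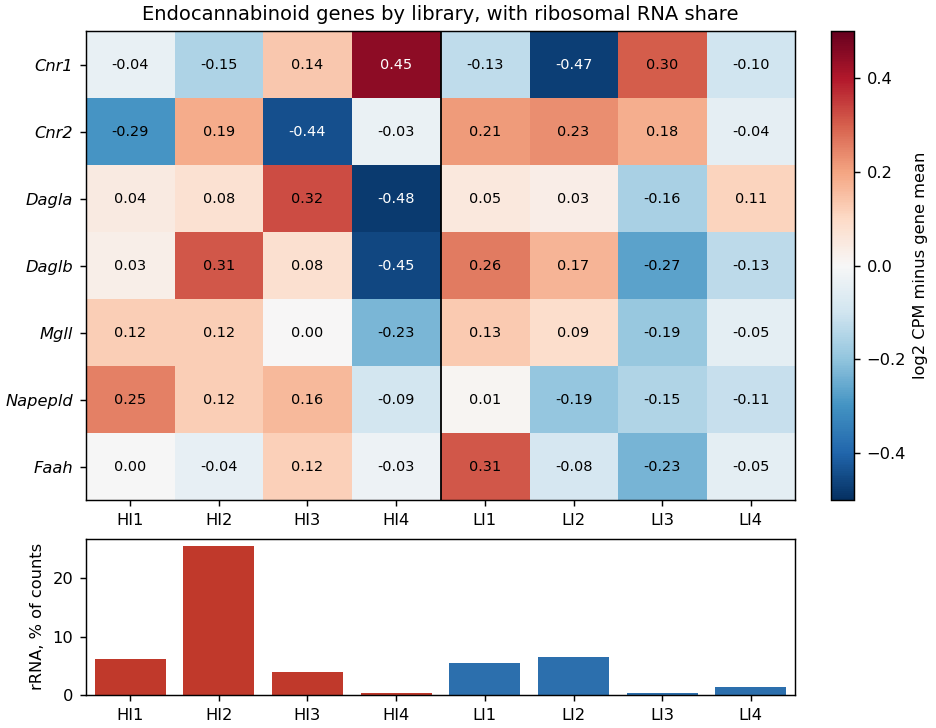
Upper panel, log2 CPM of each gene minus its mean over the 8 libraries (color and printed value), with HI libraries left of the line and LI libraries right of it. Lower panel, ribosomal RNA as a percentage of counts in the same libraries. In HI4 and LI3 Cnr1 is above its mean (0.45 and 0.30) while Dagla, Daglb and Mgll are below theirs.

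Some of the spread was shared between libraries, in opposite directions for Cnr1 and the 2-AG enzymes. In HI4 and LI3 together Cnr1 lay 0.50 log2 units above its mean in the other 6 libraries. For Dagla, Daglb and Mgll the same difference was -0.43, -0.48 and -0.28, below the other 6. For Faah and Napepld it was -0.17 and -0.16, and for Cnr2 0.097. HI4 and LI3 were singled out by their ribosomal RNA share and not by a label, and the differences carry no test. Such a split was not particular to the endocannabinoid genes. The astrocyte marker Aqp4 stood at 707 CPM in HI4 and 638 CPM in LI3, against 366 to 541 CPM in the other 6. The excitatory neuron marker Slc17a7 stood at 865 and 961 CPM, against 1163 to 1571 CPM. Not every marker split, since Vip stood at 32.2 and 33.3 CPM, within the 29.8 to 47.3 CPM of the other 6. How common such shifts were over all genes was not tested.

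Ratios of 2 genes within a library do not depend on how libraries are scaled. The ratio of Cnr1 to Dagla, counts per effective length, was 1.80, 1.62, 1.67 and 3.62 in libraries HI1 to HI4 and was 1.69, 1.34, 2.64 and 1.64 in libraries LI1 to LI4. HI4 and LI3 stood above the rest, and the log2 ratio averaged 1.04 ± 0.55 over the HI libraries and 0.82 ± 0.41 over the LI libraries (SD of 4, two-sided exact permutation p = 0.571). The difference was 0.21, and without HI4 it was -0.060. The ratio of Dagla to Daglb was 2.33 to 3.25 in HI and 2.38 to 3.25 in LI, with mean log2 ratios of 1.46 ± 0.20 in HI and 1.46 ± 0.21 in LI (exact permutation p = 0.971). The ratio of Mgll to Dagla, the enzyme that breaks down 2-AG over the enzyme that makes it, was 2.27 to 3.38 in HI and 2.55 to 3.01 in LI, with mean log2 ratios of 1.52 ± 0.24 in HI and 1.495 ± 0.11 in LI (exact permutation p = 0.886).

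For anandamide, the ratio of Faah to Napepld was 4.00, 4.23, 4.64 and 4.98 in libraries HI1 to HI4 and was 5.88, 5.15, 4.51 and 5.01 in libraries LI1 to LI4. HI1 and HI2 lay below every LI library and the others overlapped. The mean log2 ratio was 2.15 ± 0.14 in HI and 2.35 ± 0.16 in LI, a difference of -0.20 that did not pass (two-sided exact permutation p = 0.114, and 0.571 adjusted over the 5 ratios). The ratio of Mgll to Faah was 2.79 to 3.60 in HI and 2.84 to 3.62 in LI (exact permutation p = 0.886). The smallest p that 4 against 4 libraries allow is 0.0286, and the adjusted p of the other 4 ratios was 0.971.

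**Figure D4:**
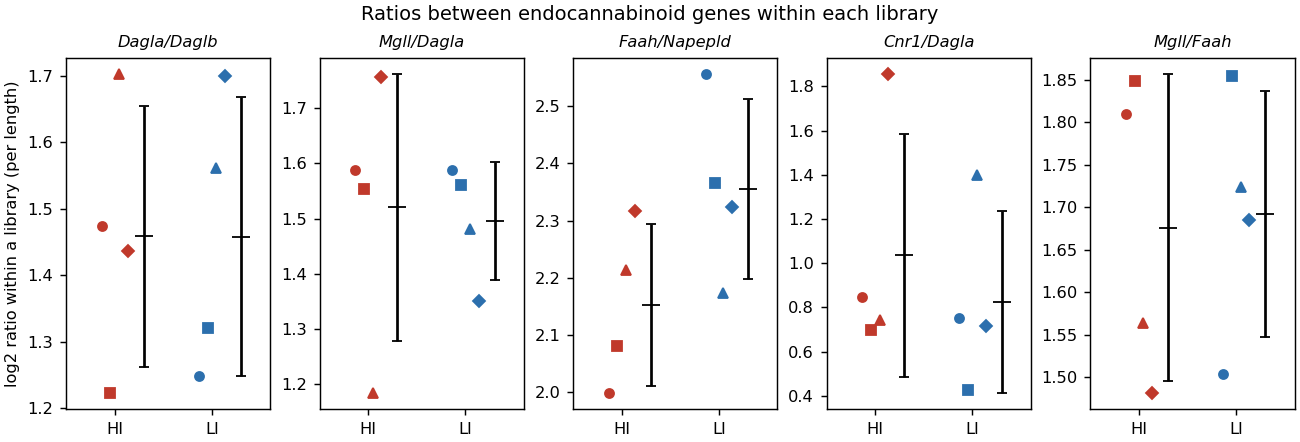
Log2 ratios between pairs of the genes within each library, counts per effective length, with HI in red on the left and LI in blue on the right, marker shapes for replicate numbers as in the CPM plot, and black bars for the mean ± SD of 4 libraries. The axes do not start at 0, the groups overlap in all 5 ratios, and HI4 stands apart in Cnr1/Dagla at 1.86.

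Other genes of the pathway were taken from lists by role. Of 38 genes in 6 lists, 4 were not in the tables as named (Gdpd3, Pla2g4e, Gpr55 and Sgip1), 5 were below the low-count filter and 29 were tested, with 12 higher and 17 lower on average in HI and a median log2 fold change of -0.021. The edgeR test left none of them past the adjusted threshold, and 1 gene of the 29, Gnaq, had an unadjusted p under 0.05, where 4.16% of all genes did, and 1 of 29 is near that share.

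Gnaq, named here as the gene with the smallest p of its list, encodes a G protein subunit that couples glutamate and acetylcholine receptors to phospholipase C beta and so to the diacylglycerol from which 2-AG is made. Its mean was 62.0 ± 12.3 CPM in the HI libraries and 48.2 ± 4.57 CPM in the LI libraries (SD of 4), and its log2 fold change of 0.36 ± 0.15 had an edgeR adjusted p of 1.00. The phospholipase gene Plcb1 differed by 0.058 ± 0.18, and of the 6 genes of diacylglycerol supply 5 were higher and 1 lower. Among the other enzymes of N-acyl ethanolamine synthesis 5 of 5 tested genes were lower on average, with Pla2g16, a phospholipase, at -0.35 ± 0.18.

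Among other routes of breakdown, Abhd6 and Abhd12, serine hydrolases that also cleave 2-AG, differed by -0.015 ± 0.16 and -0.13 ± 0.12, and Naaa, an acid amidase for N-acyl ethanolamines, by -0.021 ± 0.24. Ptgs2, the cyclooxygenase that oxidises both endocannabinoids and an activity-induced gene, averaged 27.0 ± 4.48 CPM in the HI libraries and 20.2 ± 4.55 CPM in the LI libraries (SD of 4), with a log2 fold change of 0.43 ± 0.19. All 4 lipid carrier genes were lower on average, with Fabp7 at -0.27 ± 0.18. Of the other lipid receptors Trpv1, a channel that anandamide opens, differed by -0.50 ± 0.38, with means of 1.55 ± 0.494 CPM in the HI libraries and 2.13 ± 0.830 CPM in the LI libraries. The genes of proteins that bind or transmit from CB1 were 5 higher and 1 lower on average, with the CB1-interacting protein gene Cnrip1 at 0.010 ± 0.17 and the sorting protein gene Gprasp1 at 0.10 ± 0.11.

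**Figure D5:**
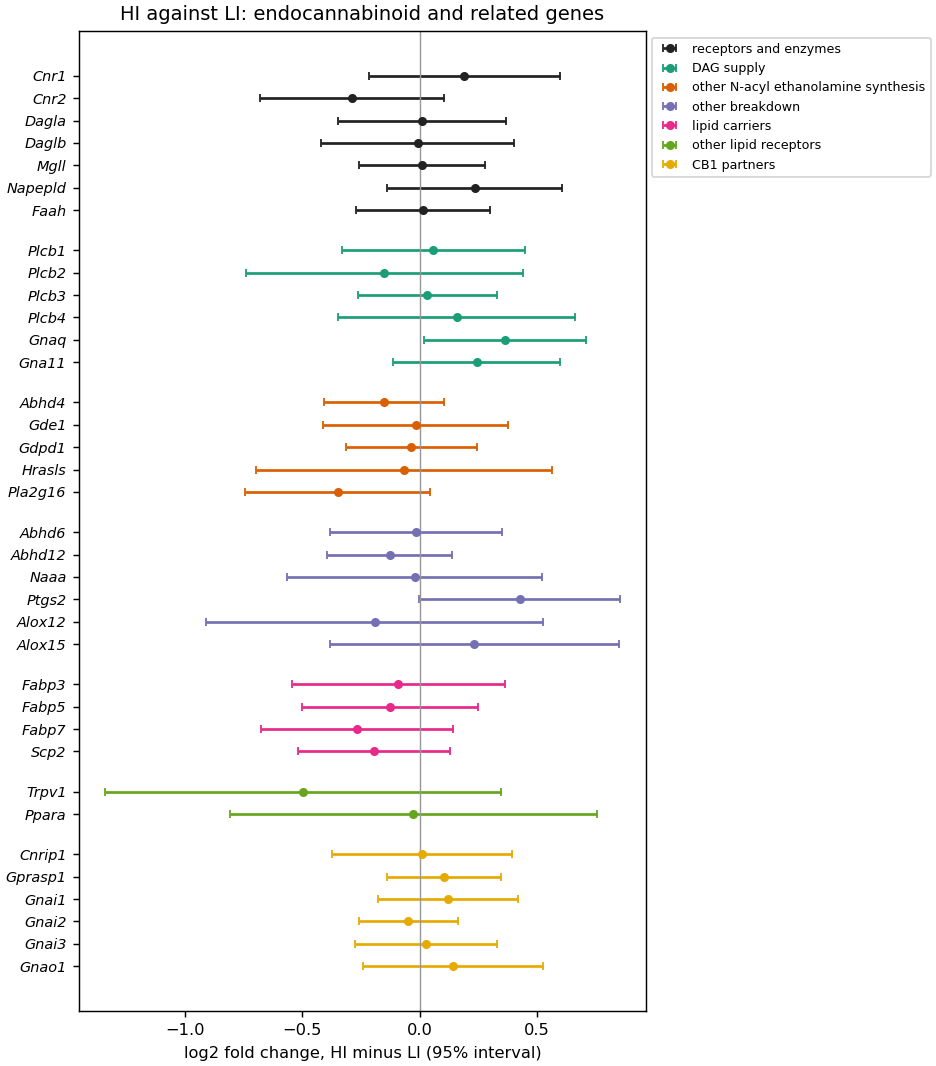
Log2 fold change, HI minus LI, of the 7 endocannabinoid receptor and enzyme genes (black, top) and the 29 tested pathway genes (colored by list), with 95% intervals from edgeR's quasi-likelihood fit. The interval of Gnaq, from 0.018 to 0.71, is the only one drawn that does not include 0, and its adjusted p was 1.00.

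The genes whose pattern over the 8 libraries was most like that of each of the 7 were found by the root mean square difference in log2 CPM, centred on each gene's mean. For Cnr1 they were Mmp16 at 0.055, Magi3 at 0.063 and Snx2 at 0.065 log2 units, where the median over all genes was 0.363. For Cnr2 they were Osgep at 0.068, Whamm at 0.094 and Fam96a at 0.11. For Dagla they were Fam189b, Rhbdd2 and Raver1, from 0.053 to 0.058, and for Daglb Mul1, Thop1 and Dtx3, from 0.046 to 0.050. For Mgll they were Tdg, Rnf145 and RGD1306151, from 0.027 to 0.038. For Faah they were Rtn4rl1, Med30 and B4galnt4, from 0.027 to 0.069, and for Napepld RGD1565498, Vkorc1l1 and Chst11, from 0.054 to 0.066. Among the 7 genes themselves the nearest to Dagla, Daglb, Faah, Napepld and Cnr2 was Mgll, at 0.16, 0.13, 0.14, 0.14 and 0.27, while Cnr1 was 0.31 from its nearest, Napepld. The measure favours genes that vary little, and Mgll had the smallest SD of the 7, at 0.14. Its place as nearest gene therefore does not show a shared pattern.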

How the data were processed

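RNA from medial prefrontal cortex homogenate was isolated with TRIzol and RNeasy columns, per the labels' protocols. Each deposited table gives every gene an expected count (an estimate that need not be whole), a TPM and an FPKM value, per the file headers. The deposited TPM were scaled by the authors over all listed genes, ribosomal RNA included, and the deposited FPKM values were not used. The submitters' processing notes name Bowtie2 2.1.0. Counting program, build, annotation and strand use are not given in the sources used, and reads of overlapping or antisense genes cannot be told apart. Expected counts were rounded, filtered with filterByExpr (minimum count 10, minimum total 15) and scaled by TMM in edgeR 4.0.16 under R 4.3.3. The HI and LI libraries were set against each other with the edgeR quasi-likelihood test over all genes at an adjusted p of 0.1, the alpha of the series' design text, whose Fisher's exact test was run as an alternative beside DESeq2 1.42.0 and limma 3.58.1. The SE came from the log2 fold change and the root of its F statistic. CPM are counts over TMM-scaled library size, log2 CPM used a prior count of 2, and ratios added 1 count. The fits were tested on simulated data. The 7 genes, the lists and the tests were chosen with earlier results of these data known. Pathway genes named are 6 chosen by name and the gene with the smallest p of each list, and 3 nearest genes are named per pattern. The libraries of a group differed by more than sampling noise and none were merged.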

Additional observations from a re-analysis of the deposited data

Results flagged for a closer look

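The log2 ratio of Cnr1 to Dagla in HI4 was 1.86, far above the other HI libraries, which lay between 0.70 and 0.85. It was the only value that stood so far from its group among 24 groups of 4 libraries checked (7 genes and 5 ratios in HI and in LI), and chance gives about 1 in 20 groups. LI3, the library with the nearest ribosomal RNA share, had the next highest ratio at 1.40.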

How the results depend on the processing

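The count of genes past the adjusted threshold, 0 as reported, was 30 with DESeq2 (29 higher and 1 lower in HI), 6596 with Fisher's exact test on summed counts (1479 higher and 5117 lower) and 440 with the log2 share of ribosomal RNA as a covariate, which was chosen after seeing the data. It was 0 in that covariate fit without HI4 and 0 without LI3, 0 without any 1 library and 0 under the other alternatives, among which the planned edgeR and limma fits had 359 to 828 genes at an unadjusted p under 0.05. The fit with the log2 share of ribosomal RNA had 2309 such genes. Fisher's exact test alone passed any of the 7 genes, with Cnr1 at 0.095, Cnr2 at -0.42, Dagla at -0.082, Daglb at -0.13, Mgll at -0.094 and Faah at -0.096. DESeq2 gave no adjusted p for Cnr2 and Napepld, and no gene of the 7 fell under the low-count filter. Scaling by library totals alone moved the median of all genes to -0.12. Cnr1, Cnr2 and Napepld kept their direction under every alternative run, at 0.090, -0.41 and 0.13 with library totals alone, where the unadjusted p of Cnr2 was 0.0369. The other genes, with values near 0, changed sign. Dagla was -0.11 with library totals alone, -0.015 with limma-voom, -0.020 with limma on log2(TPM + 1), -0.038 with the share of ribosomal RNA as covariate, -0.071 with its log2 and -0.069 with its log2 and without LI3. Mgll was -0.10 with library totals alone, -0.055 with the share, -0.052 with its log2, and -0.043 and -0.059 with the log2 without HI4 and without LI3. Faah was -0.094 with library totals alone, -0.010 with the log2 share, -0.064 and -0.057 with it without HI4 and without LI3, and -0.044 without both libraries, and it was -0.14 within replicates 1 and 2 and 0.19 within replicates 3 and 4. Daglb was 0.033 without HI4 and LI3. The ratio of Dagla to Daglb differed by -0.000576 with 5 counts added. The cause of these changes was not tested. Leaving out 1 library gave 0.059 to 0.34 for Cnr1, -0.40 to -0.19 for Cnr2, -0.11 to 0.14 for Dagla, -0.12 to 0.12 for Daglb, -0.047 to 0.082 for Mgll, -0.056 to 0.13 for Faah and 0.18 to 0.30 for Napepld. The difference in log2 ratio was then -0.080 to 0.082 for Dagla/Daglb, -0.054 to 0.14 for Mgll/Dagla, -0.26 to -0.14 for Faah/Napepld, -0.060 to 0.40 for Cnr1/Dagla and -0.079 to 0.049 for Mgll/Faah. A pairing of libraries by replicate number was not shown. Deviations of same-numbered libraries correlated at 0.22, 0.54, -0.053 and 0.059 over genes, and 1 of 4 HI libraries correlated best with its own number. With so few libraries these correlations cannot settle whether the numbers pair them. With the replicate block 0 genes passed, Cnr1 was 0.20, Cnr2 -0.30, Dagla -0.014, Daglb -0.017, Mgll 0.0096, Faah 0.025 and Napepld 0.23. Napepld and Cnr2 rest on 45 to 128 counts per library, and their SE lay within the range of the other 5 genes.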
